A study of Mus musculus with 9 samples.

Results

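Klk1b21, Klk1b24 and Klk1b27 are mouse tissue kallikreins, secreted serine proteases made in the testis by Leydig cells. They are 3 of the 19991 genes in the deposited count table. They were chosen on measured values, because Klk1b21 had differed between the inhibitors, and Klk1b24 and Klk1b27 were added as its Leydig cell relatives. All 3 passed the filter on low counts, which kept 15834 genes. The study measured testis RNA of ICR mice, an outbred stock, 8 weeks old, after inhibition of the kinesin KIFC1. The Control group received an injection of PBS, the AZ82 group 1 µM of the inhibitor AZ82, and the CW069 group 50 µM of the inhibitor CW069, with 3 libraries per group. The doses of the inhibitors therefore differ, and no time after injection is given. The labels do not say whether the 3 samples of a group came from separate animals, so each p-value describes the scatter of these samples alone, part of which may be technical.

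Kallikreins are made as inactive precursors and cut proteins after basic residues once activated. The best known tissue kallikrein, Klk1, releases kinin peptides from kininogen, and the mouse carries a large cluster of recent Klk1 duplicates, the Klk1b genes, which have taken on other substrates such as growth factor precursors and prorenin. Klk1b21, Klk1b24 and Klk1b27 are the Klk1b genes described in Leydig cells, the interstitial cells that make testosterone, and their proteins have been studied for the cleavage of extracellular matrix and, for the Klk1b21 protein, of an IGF-binding protein.

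In the RefSeq annotation the kallikrein genes lie side by side on chromosome 7. Klk1b27 and Klk1b21 are direct neighbours there, and Klk1b22 and Klk1b16 stand between Klk1b21 and Klk1b24. The stretch of promoter that the 3 genes share is printed here because it shows how alike they are where transcription begins. Capitals mark TGACCT, which is the reverse complement of AGGTCA, an element read by nuclear receptors, and TTTAAA, which resembles the core promoter element called the TATA box. Positions are on the plus strand of chromosome 7 in GRCm38.p6, a build older than the GRCm39 of the counts, and the sequences are RefSeq's for that reference genome, not the ICR mice's own.
Klk1b21, chr7:44102091-44102301: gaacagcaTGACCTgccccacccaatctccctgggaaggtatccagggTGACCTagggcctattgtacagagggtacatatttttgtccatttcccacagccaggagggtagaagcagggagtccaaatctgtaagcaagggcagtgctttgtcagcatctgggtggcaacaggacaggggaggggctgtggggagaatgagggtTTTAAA
Klk1b24, chr7:44188000-44188210: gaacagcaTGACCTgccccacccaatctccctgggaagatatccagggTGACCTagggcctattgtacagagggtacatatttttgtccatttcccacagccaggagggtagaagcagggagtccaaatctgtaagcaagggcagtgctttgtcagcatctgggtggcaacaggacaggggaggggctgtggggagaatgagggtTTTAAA
Klk1b27, chr7:44052063-44052278: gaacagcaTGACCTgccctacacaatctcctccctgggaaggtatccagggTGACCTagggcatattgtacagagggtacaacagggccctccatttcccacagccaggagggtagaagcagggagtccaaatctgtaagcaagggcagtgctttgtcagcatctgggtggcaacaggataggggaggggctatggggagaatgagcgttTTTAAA

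The Klk1b21 and Klk1b24 stretches were identical at 210 of 211 aligned bases. Klk1b27 matched Klk1b21 at 93.4% and Klk1b24 at 92.9% of 211 aligned bases. Each stretch holds 2 copies of TGACCT and ends at TTTAAA. In Klk1b24 and Klk1b27 that element ends 25 and 11 bases before the annotated start of the gene, while in Klk1b21 it ends 10 bases past it, so RefSeq places the Klk1b21 start further upstream relative to the shared sequence.

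Over whole windows of 250 bases before to 50 bases after each start, the 3 genes resembled each other more than they resembled the other kallikreins. Their windows were identical at 97.7% (Klk1b21 and Klk1b24), 94.5% (Klk1b21 and Klk1b27) and 91.3% (Klk1b24 and Klk1b27) of aligned bases. The 33 pairs of 1 of them with another Klk1 or Klk1b gene ran from 79.5% to 88.1%, and the 55 pairs among those other 11 genes from 77.6% to 92.8%. Transcripts of the 3 genes were 93.3% to 94.1% identical, and 84.2% to 90.8% identical to transcripts of the other genes. Pairs among those other genes ran from 80.9% to 94.2%, so some of their transcripts were as alike as those of the 3. These windows and transcripts come from single reference entries, and the values are a description with no test.

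**Figure D1:**
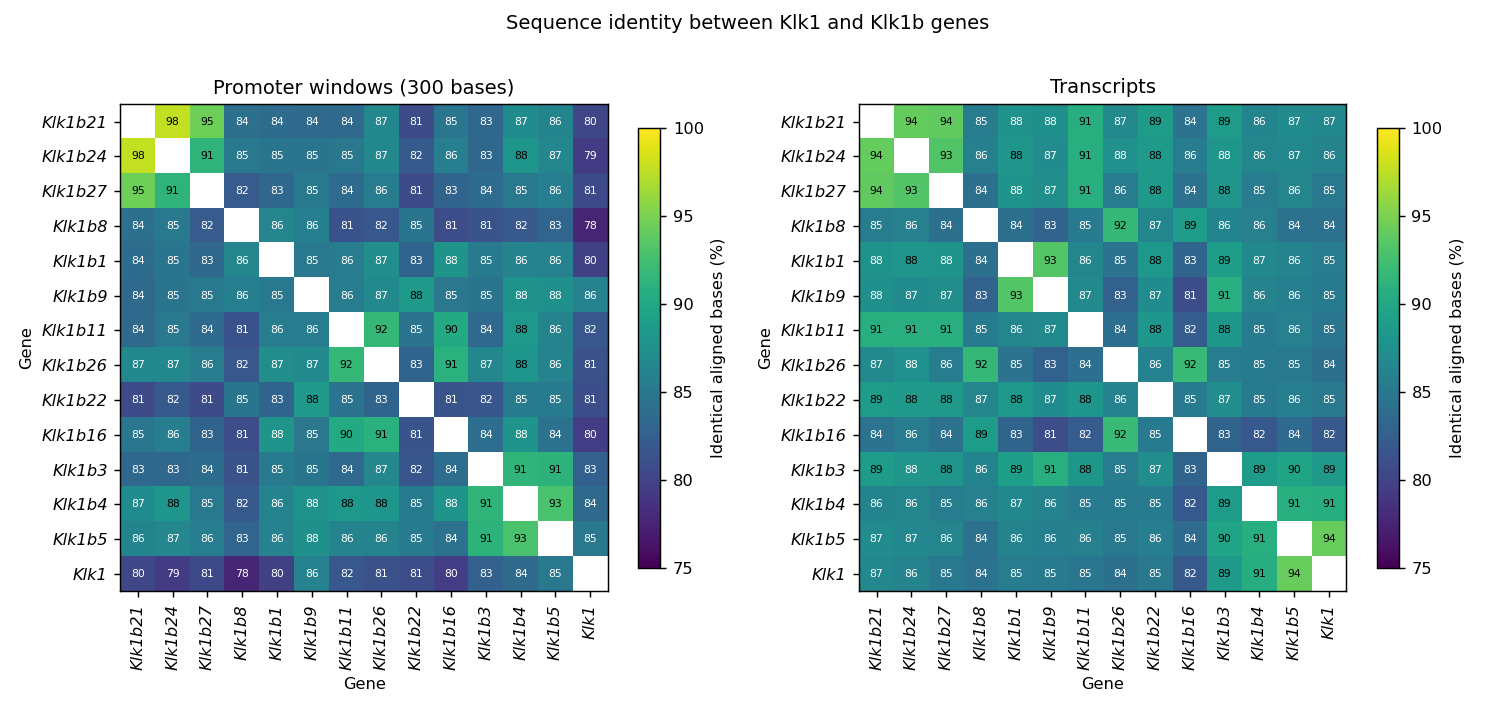
Percent of identical aligned bases between pairs of the 14 Klk1 and Klk1b genes with a RefSeq promoter window, for the windows (left) and for 1 GENCODE transcript per gene (right); colour runs from 75% to 100%. Klk1b21, Klk1b24 and Klk1b27 form the block at the upper left of both panels, from 91.3% to 97.7% in the windows and from 93.3% to 94.1% in the transcripts.

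A small set of motifs, chosen after the promoters had been read, was searched on both strands of the same windows. TTTAAA occurred in 13 of the 14 kallikrein windows, including all 3 of the Leydig kallikreins, against 13.2% of all 32851 windows. AGGTCA occurred in 11 of the 14, with 3 copies in Klk1b21 and 2 each in Klk1b24 and Klk1b27, against 16.3% of all windows. The longer CAAGGTCA, the core of sites bound by the steroidogenic factor Nr5a1 and itself an AGGTCA match, occurred in Klk1b21 and Klk1 only, against 1.56% of all windows. Since the Klk1b21 window reaches further upstream of the shared stretch than those of Klk1b24 and Klk1b27, the windows do not cover the same bases. AGAACA, an androgen receptor element, occurred in Klk1b24 and Klk1b3, against 19.0% of all windows. TATAAA and the cAMP response element TGACGTCA, found in 13.6% and 1.79% of all windows, were not among the letters of any of the 14 windows.

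Such likeness also bears on how well reads can be assigned. Of all 50-base pieces of the GENCODE transcript, 70.9% in Klk1b21, 66.1% in Klk1b24 and 85.7% in Klk1b27 occurred in no other gene's transcript. For 100-base pieces the shares were 96.5%, 97.4% and 98.2%, with the remaining pieces shared among these 3 genes alone. For 150-base pieces they were 100% in each. The read length is not given in the sources used here, so counts of near-identical stretches may have been lost or moved between these genes, and each value below carries that uncertainty.

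Total counts ran from 13856070 to 18102593 per library. Control 3 stood apart from the other libraries: its level over 14 elongating spermatid genes was 0.95 lower on the log2 scale than the mean of all libraries, against -0.14 to 0.36 elsewhere. CW069 1 and CW069 2 were the most alike of all pairs, but their counts still differed by 3.48 times the sampling noise per gene, so all 9 were kept as separate samples. All 23 steroidogenesis and 22 other Leydig cell genes had counts in every library. That is a weak check of the labelled tissue, since 18314 to 18553 of the 19991 genes had counts in each library.

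Klk1b21 was the most abundant kallikrein per length of transcript, at a mean CPM (counts scaled to library size) of 47.65 per kilobase over the 9 libraries. Klk1b24 followed at 44.2, Klk1b8 at 29.8 and Klk1b27 at 25.9 CPM per kilobase. The other tested kallikreins lay at or below 9.98, the value of Klk1b9. The members' CPM varied 2.20-fold to 3.29-fold between libraries, so the order of Klk1b21 and Klk1b24 and that of Klk1b8 and Klk1b27 is within the spread. Together the 3 genes made up 48.9% (AZ82 3) to 86.1% (Control 3) of the CPM of all 13 Klk1b genes.

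Klk1b21 stood at 31.0, 30.2 and 42.4 CPM in Control 1 to 3. The values of AZ82 1 to 3 were 26.1, 51.6 and 21.1 CPM, and those of CW069 1 to 3 were 66.0, 67.6 and 37.5 CPM. CW069 1 and CW069 2 were the highest of all libraries, while CW069 3 lay below Control 3 and AZ82 2, so the groups overlapped. The group means were 34.5 ± 6.84 CPM in Control, 32.9 ± 16.4 in AZ82 and 57.0 ± 16.9 in CW069 (SD, n = 3 each).

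Klk1b24, the closest relative of Klk1b21 in its promoter, stood at 37.5, 27.5 and 38.5 CPM in Control 1 to 3. AZ82 1 to 3 held 27.6, 55.1 and 25.1 CPM, and CW069 1 to 3 held 46.9, 54.2 and 37.0 CPM. Here AZ82 2 was the highest library of all, just above CW069 2, and the groups overlapped. The means were 34.5 ± 6.10 CPM in Control, 35.9 ± 16.7 in AZ82 and 46.0 ± 8.62 in CW069 (SD, n = 3 each).

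Klk1b27, the least abundant of the 3, stood at 15.3, 14.3 and 23.4 CPM in Control 1 to 3. Its AZ82 libraries held 12.8, 29.7 and 13.2 CPM, and its CW069 libraries 41.6, 42.2 and 15.1 CPM, each in replicate order. The 2 high CW069 libraries were again CW069 1 and CW069 2, and CW069 3 lay among the Control values. The means were 17.7 ± 4.99 CPM in Control, 18.6 ± 9.64 in AZ82 and 32.95 ± 15.5 in CW069 (SD, n = 3 each). In bulk tissue, fewer cells of a type and less RNA per cell cannot be told apart, and the same holds for more of either.

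**Figure D2:**
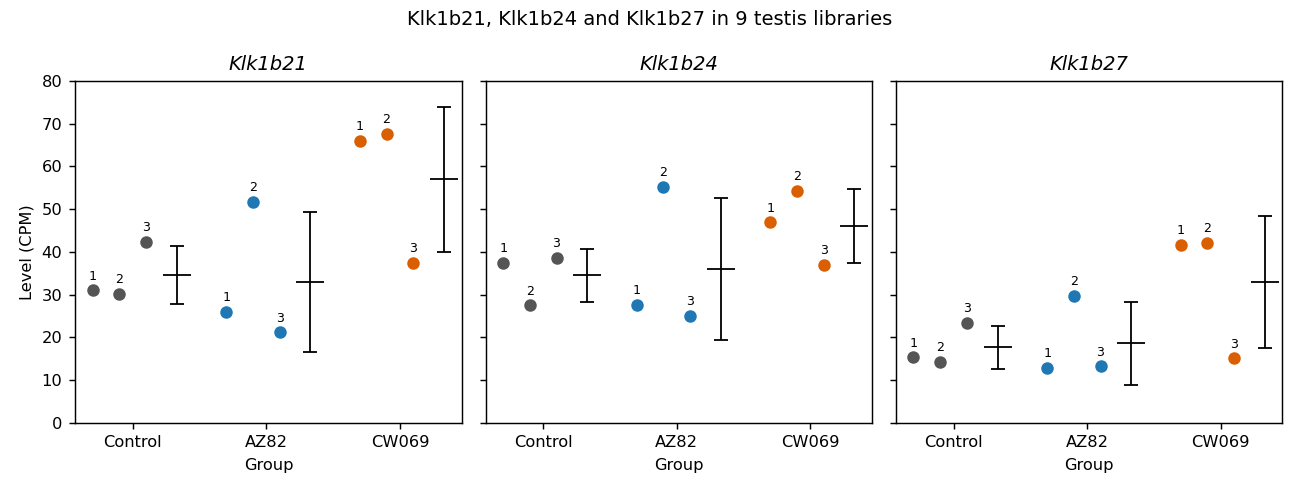
Level in CPM of Klk1b21, Klk1b24 and Klk1b27 (1 panel each) in the 9 libraries, numbered by replicate, with the group mean and SD (n = 3) as bars to the right of the points. CW069 1, CW069 2 and AZ82 2 are the 3 highest libraries in every panel, and CW069 3 lies within the range of the Control and AZ82 libraries.

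The order of libraries within groups was largely shared by the 3 genes. AZ82 2 exceeded AZ82 1 and AZ82 3 in each of them, Control 3 exceeded Control 1 and Control 2 in each, and CW069 3 was the lowest CW069 library in each. CW069 1 and CW069 2 differed by a factor of 1.03 in Klk1b21, 1.155 in Klk1b24 and 1.01 in Klk1b27. In every gene the 3 libraries at the top were CW069 1, CW069 2 and AZ82 2, in differing order.

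The 3 genes spread more within groups than genes of like abundance. The SD of log2 CPM within groups was 0.50 for Klk1b21, 0.42 for Klk1b24 and 0.67 for Klk1b27. Tested genes of like level, 2359 to 2393 of them, had a median of 0.11 to 0.13, and 99.1%, 98.6% and 99.6% of them had a smaller SD. The widest group for Klk1b21 was AZ82, with an SD of 0.67, and for Klk1b27 it was CW069, with 0.85. This ranking was made after the values had been seen and is a description. Other kallikreins varied widely too: over the 9 libraries CPM spanned 4.03-fold in Klk1b8 and 3.98-fold in Klk1b9. The 3 genes spanned 2.20-fold to 3.29-fold, Klk1 2.79-fold and Klkb1 1.79-fold.

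Since the contrast of CW069 with AZ82 chose these genes, and the other comparisons of single groups share those libraries, the fold changes that follow are given with no test. Between CW069 and AZ82 the edgeR log2 fold change was 0.79 ± 0.31 (SE) for Klk1b21, 0.35 ± 0.27 for Klk1b24 and 0.82 ± 0.41 for Klk1b27. Of the 3 genes, 0 had groups that did not overlap, and over all genes tested 11.3% did not overlap in this contrast. AZ82 2 holds much of the AZ82 mean: without it the values were 1.27, 0.80 and 1.33.

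CW069 exceeded Control by 0.72 ± 0.31 for Klk1b21, 0.42 ± 0.27 for Klk1b24 and 0.89 ± 0.41 for Klk1b27 on the log2 scale (edgeR, SE). AZ82 stood near Control, with log2 fold changes of -0.07 ± 0.32, 0.06 ± 0.27 and 0.07 ± 0.42 in the same order. Without AZ82 2 the last values became -0.55, -0.39 and -0.44. Leaving out other single libraries moved them to either side of 0 as well: without Control 3, for example, they were 0.10, 0.15 and 0.32. The groups of 0 of the 3 genes were apart in either comparison, where 13.4% (CW069) and 15.3% (AZ82) of all genes tested were. Both comparisons use the same Control libraries.

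The test that the choice of genes left free is the mean of both inhibitors against Control. Klk1b21 was 0.33 ± 0.28 (SE) higher on the log2 scale, with an edgeR adjusted p of 0.710. Klk1b24 was 0.24 ± 0.24 higher (edgeR adjusted p = 0.752) and Klk1b27 0.48 ± 0.36 higher (edgeR adjusted p = 0.673). None of the 3 passed, and 0 of 3 did so with DESeq2 or limma-voom. Over all genes tested edgeR called 0.00632% in this comparison, 9.57% had an unadjusted p under 0.05 against 0 of the 3 genes, and 5.11% had groups that did not overlap against 0 of the 3. The 3 genes thus did not pass in this comparison, which does not show that they were unchanged. It averages AZ82, which stood near Control, with CW069, and CW069 alone was not tested.

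**Figure D3:**
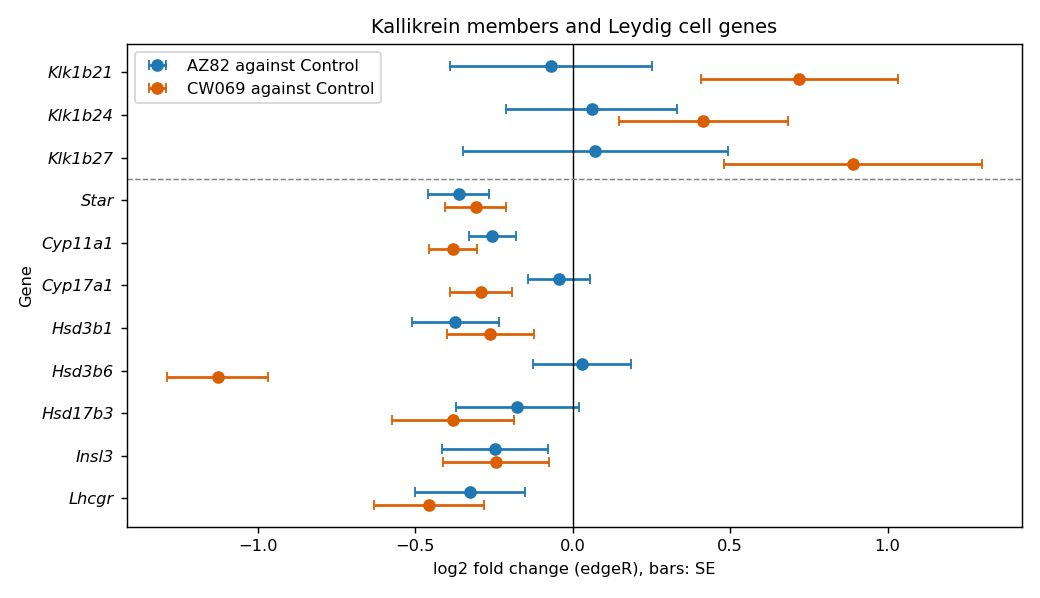
edgeR log2 fold changes against Control with their SE for the 3 kallikreins (above the dashed line) and 8 Leydig cell genes (below it), for AZ82 and CW069, 3 libraries per group. The kallikreins lie at 0.42 to 0.89 in CW069 and within 0.07 of 0 in AZ82, with wider bars than the Leydig genes, which lie below 0 in CW069.

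The mix of the 3 transcripts differed between libraries. Klk1b27 made up 16.8% (CW069 3) to 27.0% (CW069 1) of the members' summed counts. In CW069 1 and CW069 2 its share was 27.0% (95% exact binomial interval 25.1 to 28.8) and 25.7% (24.0 to 27.5), and in CW069 3 it was 16.8% (14.99 to 18.7). The Control libraries held 18.3%, 19.9% and 22.4%, and the AZ82 libraries 19.3%, 21.8% and 22.2%. These intervals cover counting error only, and the shares mirror Klk1b24, which made up 30.4% and 33.1% of the sum in CW069 1 and CW069 2 and 36.9% to 44.7% in the other 7 libraries.

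Stated as ratios of CPM, Klk1b21 to Klk1b24 was 1.41 and 1.25 in CW069 1 and 2, 1.01 in CW069 3, 0.83 to 1.10 in Control and 0.84 to 0.94 in AZ82. Klk1b27 to Klk1b24 was 0.89 and 0.78 in CW069 1 and 2, 0.41 in CW069 3, 0.41 to 0.61 in Control and 0.46 to 0.54 in AZ82. Klk1b27 to Klk1b21 stayed between 0.40 and 0.63 throughout. In AZ82 2, where all 3 genes were high, the ratios lay close to those of AZ82 1 and AZ82 3. The ratios were picked after the values were seen and carry no test.

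With group means removed, the 3 genes varied together from library to library. Pearson's r was 0.92 for Klk1b21 and Klk1b24 (exact permutation within groups, two-sided, adjusted p = 0.0278), 0.95 for Klk1b21 and Klk1b27 (exact permutation adjusted p = 0.0463) and 0.84 for Klk1b24 and Klk1b27 (exact permutation adjusted p = 0.0417), with adjustment over 6 relations. Spearman's rho was 0.88, 0.93 and 0.82, each with an exact permutation adjusted p of 0.0463. Their unadjusted exact p-values for r were 0.00463, 0.0232 and 0.0139. Leaving out the 2 libraries farthest from the median gave r of 0.76, 0.95 and 0.80, with exact permutation adjusted p-values of 0.25, 0.417 and 0.25. The calls also ended when any 1 library was left out, with r between 0.78 and 0.99 (exact permutation adjusted p from 0.0833 to 0.25), where 72 assignments remain and the smallest unadjusted p is 0.0139. Reads that the 3 genes share can add to such a relation, and their part in it was not tested.

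Relations to the Leydig cell genes were weaker and did not pass. With group means removed, the mean level of 23 steroidogenesis genes had a Pearson's r of 0.47 with Klk1b21, 0.49 with Klk1b24 and 0.51 with Klk1b27 (exact permutation adjusted p = 0.602, 0.602 and 0.431). Spearman's rho was 0.32, 0.02 and 0.48 (exact permutation adjusted p = 0.639, 0.995 and 0.465). Without the 2 libraries farthest from the median, r was -0.12, -0.21 and 0.03, so the relation rests on those libraries, AZ82 2 among them in each case. The steroidogenesis level itself lay 0.08, 0.15 and 0.12 above the mean of all libraries in Control 1 to 3. AZ82 1 to 3 lay at -0.17, 0.08 and 0.01, and CW069 1 to 3 at -0.08, -0.09 and -0.11.

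Taken relative to that list, the kallikreins in CW069 stood further above Control than their CPM alone. The log2 level of Klk1b21 minus the mean log2 level of the list was -0.07 ± 0.27 in Control, -0.09 ± 0.61 in AZ82 and 0.83 ± 0.46 in CW069 (SD, n = 3 each). For Klk1b24 it was -0.07 ± 0.30, 0.05 ± 0.55 and 0.55 ± 0.26, and for Klk1b27 -1.05 ± 0.39, -0.92 ± 0.60 and -0.06 ± 0.83. Both inhibitors against Control differed by 0.44, 0.37 and 0.56 (exact permutation over 84 assignments, two-sided, p = 0.321, 0.286 and 0.286, where 0.0119 is the smallest possible). These differences do not pass, and no test is given for CW069 alone.

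**Figure D4:**
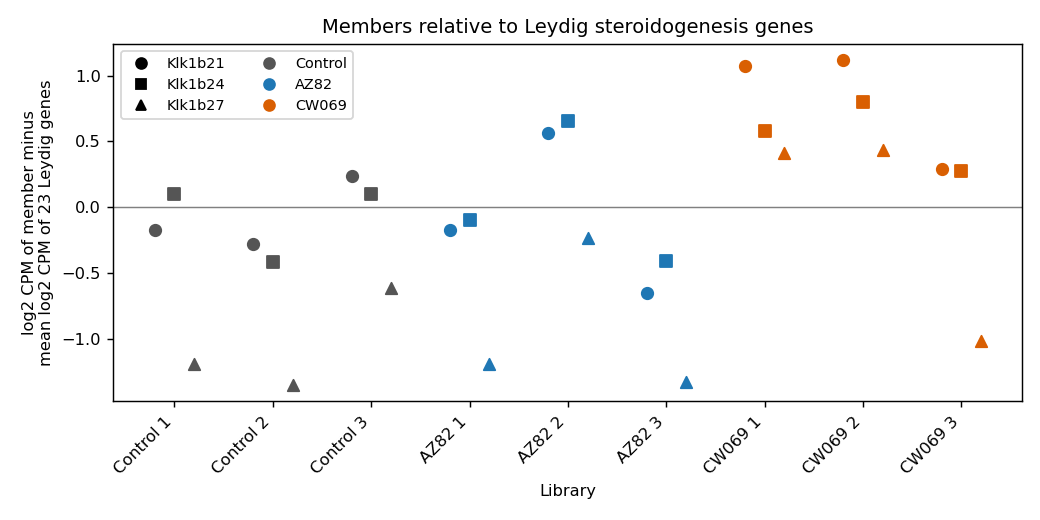
Log2 CPM of each kallikrein minus the mean log2 CPM of 23 Leydig steroidogenesis genes in the 9 libraries, with the gene as the symbol and the group as the colour. CW069 1 and CW069 2 hold the highest Klk1b21 values (1.07 and 1.12) and the highest Klk1b27 values (0.41 and 0.44), while CW069 3 lies at 0.29 and -1.02. For Klk1b24, CW069 2 (0.80) is highest, then AZ82 2 (0.66) and CW069 1 (0.58).

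Most of the Leydig genes named here lay below Control. Star, which brings cholesterol into mitochondria, had log2 fold changes of -0.36 ± 0.10 (SE) in AZ82 and -0.31 ± 0.10 in CW069 (edgeR adjusted p = 0.554 and 0.539). Cyp11a1, the enzyme of the opening step of steroid synthesis, had -0.26 ± 0.08 and -0.38 ± 0.08 (edgeR adjusted p = 0.554 and 0.396). Hsd3b6, a 3-beta-hydroxysteroid dehydrogenase of adult Leydig cells, stood at 39.1 to 63.3 CPM in Control, 49.7 to 61.5 in AZ82 and 23.9 to 25.9 in CW069. Its groups did not overlap between CW069 and Control, at -1.13 ± 0.16 (edgeR adjusted p = 0.151). In that comparison the same held for Star, Cyp11a1, Cyp17a1, Hsd3b1 and Insl3, but not for Hsd17b3 and Lhcgr. Over all genes tested 13.4% did not overlap there. In AZ82 Hsd3b6 stood at 0.03 ± 0.15 against Control (edgeR adjusted p = 0.963). It was lower in all 3 CW069 libraries, whereas among those 3 the kallikreins were high in CW069 1 and CW069 2 only. AZ82 2 was also high for the kallikreins. Insl3, a Leydig cell hormone, had -0.25 ± 0.17 in AZ82 and -0.24 ± 0.17 in CW069 (edgeR adjusted p = 0.660 and 0.754).

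The whole steroidogenesis list had 17 of 23 genes below 0 in AZ82 and 18 of 23 in CW069 against Control, with median log2 fold changes of -0.18 and -0.15, where the medians over all genes tested were 0.00 in both. Of the 23, edgeR and limma-voom called 0 in either comparison. DESeq2 called Cyp11a1 and Hsd3b6 lower in CW069 and 0 of the 23 in AZ82. Over all 15834 genes DESeq2 called 14 higher and 14 lower in CW069, and 3 higher and 3 lower in AZ82. In edgeR 6 (AZ82) and 8 (CW069) of the 23 were lower and 1 higher in each at an unadjusted p under 0.05. Over all genes tested 8.84% (AZ82) and 7.34% (CW069) were under that p in either direction.

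Markers of other cells differed between the libraries too. Within CW069, the mean log2 level of 15 Sertoli cell genes was 0.22 and 0.17 above the mean of all libraries in CW069 1 and CW069 2 and -0.08 in CW069 3, and that of 14 macrophage genes was 0.02, 0.02 and -0.40. Within AZ82, AZ82 2 was the highest library for 22 further Leydig genes (0.16, against -0.29 and -0.06 in AZ82 1 and 3). The same held for the 9 tested adipocyte genes (1.37, against -0.56 and -0.05). In CW069 1 to 3, however, the adipocyte level was 0.02, -0.94 and -0.05, lowest in CW069 2. AZ82 2 was also the highest AZ82 library for the 4 tested epididymis genes (0.31, against -0.28 and -0.07) and for the Sertoli genes (-0.06, against -0.27 and -0.21). It was not the highest for the macrophage genes, at -0.33, 0.03 and 0.13 in AZ82 1 to 3. For 10 endothelial genes (-0.07, against -0.04 and 0.22) and 9 peritubular myoid genes (-0.10, against -0.07 and 0.08) it was the lowest AZ82 library. Summed CPM of the Sertoli list ran from 1509 to 1662 in Control, 1368 to 1532 in AZ82 and 1406 to 1727 in CW069. The macrophage list ran from 355 to 527, 396 to 473 and 394 to 459. The adipocyte list, summed over 11 genes, ran from 256 to 587, 554 to 615 and 425 to 536. Lipe alone averaged 411, 543 and 448 CPM in Control, AZ82 and CW069, so that sum is mostly 1 gene. The epididymis list, summed over 12 genes, ran from 103 to 196, 117 to 191 and 146 to 178. That sum too is mostly 1 gene, Cst8, which averaged 121, 120 and 140 CPM. Of the 12 genes, 3 to 7 had no counts in a library. Of the 4 tested epididymis genes, 1, Sult1e1, is also in the further Leydig list. All 15 Sertoli and 14 macrophage genes had counts in every library. The part of these cells in the kallikrein levels was not tested.

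Among the other kallikreins, 20 had counts and 10 were tested. Some resembled the Leydig kallikreins in which libraries were high, and others did not. Klk1b22, which processes growth factor precursors, was low except in CW069 1 and CW069 2, at 4.86 and 4.04 CPM, against 0.34 in CW069 3, 0.58 to 1.03 in Control and 0.29 to 0.71 in AZ82. Its neighbour in pattern was Klk1b26, known for converting prorenin, at 3.29 and 3.97 CPM in CW069 1 and 2, 0.45 in CW069 3, 0.00 to 0.39 in Control and 0.29 to 1.31 in AZ82. Both are thus low genes that were high in the libraries where Klk1b21 and Klk1b27 were highest, but not in AZ82 2, at 0.71 and 0.36 CPM. With group means removed, Klk1b22 had r of 0.67, 0.53 and 0.78 with Klk1b21, Klk1b24 and Klk1b27 over the 9 libraries, and Klk1b26 had 0.23, -0.02 and 0.30, given as a description. These genes were singled out after their values were seen.

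In edgeR Klk1b26 stood 3.96 ± 1.00 above Control on the log2 scale in CW069 (adjusted p = 0.524) and its groups did not overlap. DESeq2 gave it 4.07 with an adjusted p of 0.0198. In that comparison DESeq2 called 14 of all 15834 genes higher and 14 lower. The Control counts of Klk1b26 were 1, 6 and 0, so the size of its fold rests on few reads. Klk1b22 stood 1.95 ± 0.71 above Control (edgeR adjusted p = 0.626) and 2.44 ± 0.76 above AZ82 (edgeR adjusted p = 0.958). Klk1b22 shared 50-base pieces with all 3 Leydig kallikreins, and Klk1b26 with Klk1b21 and Klk1b24. Both also shared such pieces with other kallikrein genes, and 86.7% (Klk1b22) and 85.0% (Klk1b26) of their pieces of that length were their own.

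Klk1b8 and Klk1b9 went another way. Klk1b8 stood at 29.3, 30.0 and 8.51 CPM in Control 1 to 3. Replicates 1 to 3 of AZ82 held 26.5, 33.6 and 34.3 CPM, and those of CW069 24.7, 18.9 and 24.3 CPM. Control 3, the library with few elongating spermatid transcripts, was its lowest, while the same library was the highest Control for all 3 Leydig kallikreins. Klk1b9, an epidermal growth factor-binding protein, stood at 6.42, 9.82 and 3.46 CPM in the Control libraries. Its AZ82 values were 11.6, 13.8 and 12.1 CPM and its CW069 values 6.85, 5.95 and 8.18 CPM. All AZ82 libraries lay above all others, at 0.92 ± 0.28 over Control (edgeR adjusted p = 0.554) and with CW069 0.83 lower than AZ82 (log2 fold change -0.83 ± 0.28, edgeR adjusted p = 0.958). The log2 levels of Klk1b8 with group means removed had r of -0.32, -0.21 and -0.33 with Klk1b21, Klk1b24 and Klk1b27 over the 9 libraries, given as a description.

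**Figure D5:**
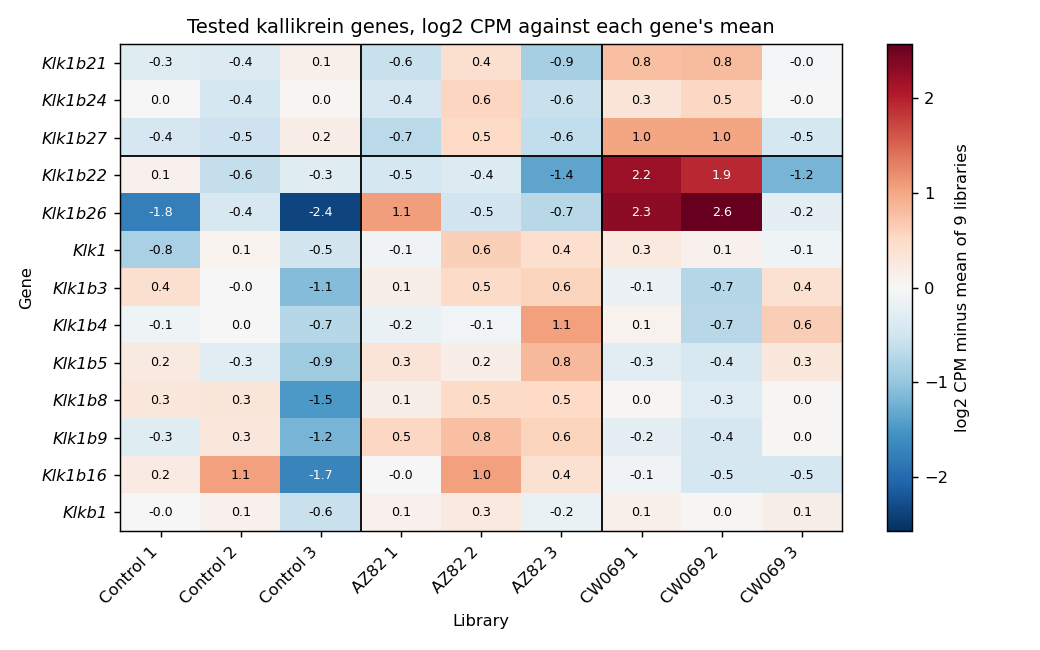
Log2 CPM of the 13 tested kallikreins minus each gene's mean over the 9 libraries; rows are genes, with the 3 Leydig kallikreins on top, columns are libraries, and numbers give the plotted value. Klk1b21, Klk1b24, Klk1b27, Klk1b22 and Klk1b26 are above 0 in CW069 1 and CW069 2. So are Klk1 (0.26 and 0.11) and Klkb1 (0.14 and 0.02), by less. Klk1b3, Klk1b4, Klk1b5, Klk1b8, Klk1b9, Klk1b16, Klk1b26 and Klkb1 are at their lowest in Control 3.

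Of the remaining tested kallikreins, edgeR called 0 in any comparison. Klk1 itself was at 4.49 ± 1.53 CPM in Control, 7.34 ± 1.78 in AZ82 and 6.16 ± 0.79 in CW069 (SD, n = 3 each), with a log2 fold change of 0.71 ± 0.25 in AZ82 (edgeR adjusted p = 0.554). Klk1b3, the gamma subunit of nerve growth factor, lay between 1.86 and 6.28 CPM and Klk1b5 between 1.80 and 6.35 CPM, each lowest in Control 3. Klk1b4, the alpha subunit of nerve growth factor, and Klk1b16, known as gamma-renin, had mean levels under 1 CPM. The CW069 libraries of Klk1b16 lay below those of AZ82, at a log2 fold change of -1.07 ± 0.68 (edgeR adjusted p = 0.999). Klkb1, plasma kallikrein and no member of the cluster, lay between 8.85 and 15.85 CPM. The 10 untested ones, Klk15, Klk1b1, Klk14, Klk6, Klk8, Klk12, Klk10, Klk4, Klk1b11 and Klk11, had between 1 and 64 counts over all libraries.

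Of these 10 other tested kallikreins, edgeR called 0 in AZ82 against Control, and 3 were higher and 0 lower at an unadjusted p under 0.05. In that comparison edgeR called 0% of all genes and 8.84% had an unadjusted p under 0.05. In CW069 against Control edgeR called 0, with 2 higher and 0 lower unadjusted, beside 0% and 7.34% of all genes, and in CW069 against AZ82 it called 0, with 2 higher and 1 lower unadjusted, beside 0% and 4.97%. DESeq2 called Klk1b26 in CW069 against Control, beside 14 higher and 14 lower of all 15834 genes. In the other comparisons DESeq2 called 0 of the 10, and limma-voom called 0 in each comparison. Their median log2 fold change was 0.62 in AZ82 and 0.20 in CW069 against Control, against 0.00 over all genes tested. Control 3 was the lowest library for Klk1b3, Klk1b4, Klk1b5, Klk1b8, Klk1b9, Klk1b16, Klk1b26 and Klkb1, but not for Klk1 and Klk1b22. The part of Control 3 in these medians was not tested.

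Summing reads of near-identical genes changed the size of the contrast that chose Klk1b21. The 3 Leydig kallikreins counted as 1 gene were 0.64 higher in CW069 than in AZ82 on the log2 scale, and all 13 Klk1b genes counted as 1 were 0.31 higher. Klk1b8 and Klk1b9, which enter that sum, lay lower in CW069 than in AZ82. Against Control, the sum of all Klk1b genes stood 0.22 higher in AZ82 and 0.53 higher in CW069.

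The proteins and pathways that kallikreins act on were read from lists chosen with earlier results known. Of 15 genes of the kinin and angiotensin system, 11 were tested. For the mean of both inhibitors against Control, edgeR called 0 of them, with 1 higher and 1 lower at an unadjusted p under 0.05, beside 9.57% of all genes, and DESeq2 and limma-voom also called 0. The higher one was Ace3, an Ace homologue, at 132 ± 8.31 CPM in Control, 145 ± 6.70 in AZ82 and 154 ± 8.58 in CW069 (log2 fold change 0.18 ± 0.06, edgeR adjusted p = 0.490). The lower one was Mme, a kinin-degrading peptidase, at 15.4 ± 2.16, 12.4 ± 1.40 and 12.6 ± 0.14 CPM (-0.30 ± 0.11, edgeR adjusted p = 0.490).

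All 11 genes of the insulin-like growth factor list in the table were tested. For the mean of both inhibitors, edgeR, DESeq2 and limma-voom called 0 of them. In edgeR 1 was higher and 2 lower at an unadjusted p under 0.05, beside 9.57% of all genes in either direction. The 2 lower ones were Igf1r (-0.18 ± 0.08) and Igf2r (-0.16 ± 0.07), with edgeR adjusted p of 0.511 and 0.516. Igfbp5, a binding protein of these growth factors, was the member with the smallest p, at 6.84 ± 2.83 CPM in Control, 11.8 ± 3.30 in AZ82 and 14.3 ± 3.22 in CW069 (SD, n = 3 each). It stood 0.92 ± 0.27 (SE) above Control on the log2 scale, with an edgeR adjusted p of 0.488. The list's median log2 fold change was -0.06, with 4 of 11 genes above 0.

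Matrix proteins, plasminogen activators and protease inhibitors made up a list of 22 genes, 21 of them tested. For the mean of both inhibitors, 16 of the 21 were below 0 (median -0.10 on the log2 scale), and edgeR, DESeq2 and limma-voom called 0, with 0 higher and 5 lower at an unadjusted p under 0.05 in edgeR, beside 9.57% of all genes in either direction. Lamb1, a laminin chain, had -0.23 ± 0.06 (edgeR adjusted p = 0.479) and Plau, the urokinase plasminogen activator, -0.72 ± 0.21 (edgeR adjusted p = 0.488). Serpine2, a serine protease inhibitor, stood at 3.46 ± 0.26 CPM in Control, 2.21 ± 0.32 in AZ82 and 3.22 ± 0.23 in CW069 (SD, n = 3 each), with -0.38 ± 0.15 (edgeR adjusted p = 0.499).

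Finally, the genes whose levels most resembled those of the Leydig kallikreins were listed by Pearson's r of log2 CPM over the 9 libraries, among 14248 genes averaging 1 CPM or more. With group means removed, Klk1b21 was most like Zfp84 (r = 0.97), Serpine2 (0.97), Sntb1 (0.97), Qsox1 (0.96) and Nudt2 (0.96). Klk1b27 ranked 11 and Klk1b24 ranked 24 in that order. Klk1b24 was most like Gpkow (0.98), Aifm2 (0.96), Thnsl1 (0.96), Serpine2 (0.96) and Smim11 (0.95), with Klk1b21 at rank 16 and Klk1b27 at rank 99. Klk1b27 was most like Zfp84 (0.98), Hmgn1 (0.98), Uqcc3 (0.97), H2-M3 (0.96) and Dusp28 (0.96), with Klk1b21 at rank 9 and Klk1b24 at rank 189. Zfp84 and Serpine2 each appeared for a pair of the kallikreins.

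Levels as they are include the difference between CW069 and AZ82 by which Klk1b21 was chosen, so the ranks of these genes in each other's lists draw on the same values. Klk1b21 was the gene most like Klk1b27 (r = 0.96), ahead of Itih2, Ddx6, Map3k7cl and Il1rap (0.94 to 0.96). For Klk1b21 the order was Mthfd2 (0.97), Msantd3 (0.96), Klk1b27 (0.96), Gabrr2 (0.94) and Itih2 (0.92), and for Klk1b24 it was Sntb1 (0.94), Tcaf2 (0.93), Klk1b21 (0.92), Mthfd2 (0.92) and Snrnp27 (0.91). All genes share the 9 libraries and their depth, and these correlations are a description with no p.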

How the data were processed

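The authors deposited counts of reads per gene for 9 testis libraries, whole numbers with no normalization, in a joint table that matched each library's own deposited counts in 19991 of 19991 genes. Per the submitters' processing notes, reads were handled with Trimmomatic, HISAT2, GRCm39 and HTSeq; versions and settings are not given in the sources used here. The labels name a stranded mRNA kit, with no strand setting for HTSeq. From these counts, genes with low values were removed with filterByExpr by group, and 15834 genes were scaled by TMM. A model with a mean for each group was fitted to all 9 libraries (6 residual degrees of freedom) with edgeR 4.0.16 in R 4.3.3. Its quasi-likelihood test is two-sided, with Benjamini-Hochberg adjustment over all genes and a threshold of 0.05. CPM are TMM-scaled, and log2 CPM used a prior count of 2. The pipeline was tested on simulated data. Exact permutation tests were run in Python 3.11.15.

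Members and gene lists were chosen with earlier results of these data known. Named genes are the 3 members, every other tested kallikrein, Leydig marker genes, up to 4 members per list by smallest p, and the 5 genes most alike each member, predicted genes left out. Alternatives were RLE factors or library size, other filters, DESeq2 1.42.0, limma-voom (limma 3.58.1), a robust dispersion estimate, fitting only the groups compared, a replicate block, leaving out each library, and summed paralogs. Symbols, gene order and sequences came from RefSeq (GRCm38.p6) and transcripts from GENCODE. Symbols matched promoter windows for all 3 members and 14 Klk1 and Klk1b genes.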

Additional observations from a re-analysis of the deposited data

How the results depend on the processing

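For the mean of both inhibitors against Control, 0 members were called under each of 17 alternatives that kept the genes apart. The 3 log2 fold changes kept their sign in all 17. They lay at 0.08 to 0.50 for Klk1b21, 0.01 to 0.34 for Klk1b24 and 0.22 to 0.73 for Klk1b27. Their adjusted p-values from edgeR, DESeq2 or limma-voom ran from 0.597 to 0.980. Summed into 1 row, the 3 members stood at 0.33 and all Klk1b genes at 0.37 (edgeR adjusted p = 0.700 and 0.527). Fits of the compared groups alone gave no value for this comparison, which needs all 3 groups. The number of all genes called was 1 in edgeR, 15 in DESeq2, 0 with a replicate block, and 0 to 6 when 1 library was left out. These counts, and the relations with 1 library left out, were added after seeing the data. Replicate numbers do not pair the samples: same-numbered libraries correlated at -0.15 to 0.04 in their deviations from group means. The block changed no member's call, and gave Klk1b21 0.82 in CW069 against AZ82. The relations between members were no longer called without the 2 libraries farthest from the median (r of 0.763, 0.946 and 0.798) and without any 1 library, with r of 0.803 to 0.963 for Klk1b21 and Klk1b24, 0.946 to 0.985 for Klk1b21 and Klk1b27, and 0.781 to 0.912 for Klk1b24 and Klk1b27; fewer assignments then remain. CW069 against AZ82 ranged from 0.55 to 1.27, 0.15 to 0.80 and 0.60 to 1.33 for Klk1b21, Klk1b24 and Klk1b27, highest without AZ82 2. The summed rows gave 0.64 for the 3 members and 0.31 for all Klk1b genes. Relative to Leydig genes, the inhibitors stayed above Control in all 11 alternatives for each member, at 0.20 to 0.78. Klk1b22 and Klk1b26 rest on 0 to 71 counts per library, which limits their precision.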
